A study of Mus musculus with 9 samples.

Results

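The genes described here make and move cholesterol and fatty acids. They comprise the enzymes that build cholesterol from acetyl-CoA, the regulators that sense sterol, carriers and exporters of cholesterol, and the enzymes that make, desaturate and lengthen fatty acids. A list of 36 genes was taken, and each gene was read at a probe set, that is, a set of short probes for 1 transcript, whose annotation names that gene alone. Where a gene had several such probe sets, the one with the highest mean over all 9 arrays was used. Of the 36 genes, 35 were measured this way, out of 18193 genes read in all, and Acat2, an acetyl-CoA acetyltransferase at the entry of the pathway, had no such probe set and is only named.

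RNA of whole mouse uteri was hybridised to Affymetrix arrays on gestation day (GD) 3.5, just before the embryo implants, after mating to wild type males. The 3 groups had 3 arrays each. Uteri with the genotype Mig-6 d/d Erbb2 d/d lacked Mig-6 together with Erbb2 and are called double knockout here, and those called Mig-6 d/d lacked Mig-6 alone, in both cases because Cre driven from the Pgr locus removed floxed alleles in cells that express the progesterone receptor. Control mice carried floxed alleles without recombination (Mig-6 f/f with or without Erbb2 f/f; which array had which is not stated in the sources used here), so that cells that do not express Pgr kept both genes in every group. All lines had a mixed C57BL/6 and 129P2/OlaHsd background. The sample labels give an age of 2 weeks, whereas the methods describe adult, mated females. The methods describe RNA pools of several mice for each genotype but not whether every array had its own pool, so the p-values measure the spread between these arrays, which may be technical.

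Cholesterol is built from acetyl-CoA through mevalonate, isoprenoid units, squalene and lanosterol, and palmitate from acetyl-CoA through malonyl-CoA. The enzymes of both routes are transcribed under SREBP transcription factors, which are held in the endoplasmic reticulum by INSIG proteins when sterol is plentiful and escorted by SCAP to the Golgi for cleavage when it is scarce. SREBPs act at sterol regulatory elements together with NF-Y and Sp1 bound close by. In the mouse uterus before implantation, estrogen drives epithelial cells to divide and progesterone ends that division, and dividing cells draw on both routes for new membrane.

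Values are deposited intensities on a linear scale. They ran from 2.11 to 11548.76 over all arrays with a median of 8.07, and array medians ran from 7.87 to 8.24. A log2 fold change is the difference between mean log2 intensities, and its standard error (SE) comes from 1 linear model in limma over the 3 groups. The calls increased and decreased required over 1.5-fold change together with a Benjamini-Hochberg adjusted p under 0.05 among the 45037 probe sets fitted, and "rose" and "fell" are used only of such calls. Errfi1, the gene symbol of Mig-6, read 76.1, 29.8 and 40.3 in the double knockout, 15.1, 16.0 and 255 in Mig-6 d/d, and 454, 564 and 286 in control. Of these, the library that the labels call Mig-6 d/d replicate 3 was close to control. Erbb2 read 9.88 to 18.5 in the double knockout, 39.5 to 46.6 in Mig-6 d/d uteri and 29.4 to 45.7 in control uteri. The sources used here do not place these probe sets within or outside the deleted exons, and one outside checks nothing. The markers of stroma and smooth muscle were bright in every library, as a whole uterus holds.

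Cholesterol synthesis enzymes were higher in uteri of Mig-6 d/d than of control mice. Of the 35 measured genes, 13 rose, against 2.55% of all genes, and 0 fell, against 1.81% of all genes. Their median log2 fold change was 0.66, where that of all genes was -0.03, and 28 of the 35 had a positive value. All 3 Mig-6 d/d arrays were above all 3 control arrays for 20 genes (11.6% of all genes) and below them for 2 genes (14.1% of all genes). By role, 10 of 17 measured cholesterol synthesis enzymes rose, as did 2 of 4 regulators, 1 of 5 transport genes and 0 of 9 fatty acid enzymes. Beside that 0 by limma, 6 of the 9 had an unadjusted p under 0.05 (4 upward and 2 downward), and the methods' t-test with the fold limit called 0 of them.

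With Erbb2 removed as well, the same group of enzymes was lower than in Mig-6 d/d. In the double knockout relative to Mig-6 d/d, 15 of the 35 genes fell (3.76% of all genes did) and 1 rose (3.73% of all genes did), with a median log2 fold change of -0.61 where that of all genes was 0.03. The double knockout arrays lay below all Mig-6 d/d arrays for 19 genes (14.2% of all genes) and above them for 3 genes (18.6% of all genes). Those that fell were 12 of the 17 cholesterol synthesis enzymes, 1 of 4 regulators, 1 of 5 transport genes and 1 of 9 fatty acid enzymes. The Mig-6 d/d arrays enter both comparisons, so the 2 sets of values are given side by side and neither checks the other.

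**Figure D1:**
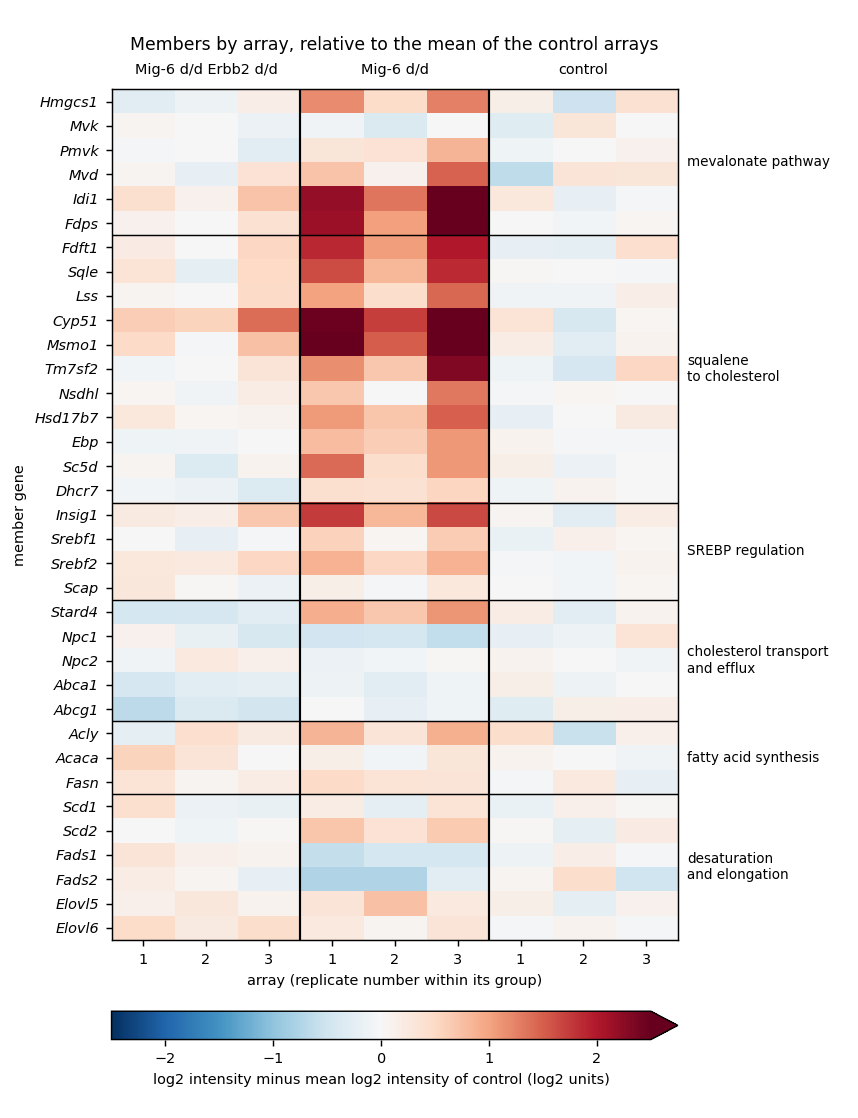
Log2 intensity of the 35 measured genes (rows, by role) on each of the 9 arrays (columns), minus the mean of the 3 control arrays; red is above and blue below control, and values over 2.5 share the darkest red. Over the 17 cholesterol synthesis enzymes the per-array median was 0.07, -0.01 and 0.33 in the double knockout, 1.16, 0.61 and 1.47 in Mig-6 d/d, whose columns are red, and -0.04, -0.06 and 0.06 in control.

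The bases before the transcription start were searched for the sites at which SREBPs and their partners are known to act, because the cholesterol synthesis enzymes moved together. RefSeq promoters (GRCm38.p6) were found for 27 of the 36 genes, and the 250 bases before the start were read on both strands. None was found for Fdps, Fdft1, Sqle, Stard4, Npc1, Abcg1, Scd1, Scd2 or Fads1. The fatty acid enzymes searched therefore left out Scd2 and Fads1, the only ones called, and the cholesterol synthesis enzymes searched included Acat2, which was not measured. The NF-Y box CCAAT was present in 14 of 15 cholesterol synthesis enzymes (93.3%), 2 of 6 fatty acid enzymes (33.3%) and 39.4% of the 14452 array genes with a promoter. Acat2 was the 1 cholesterol gene without it. The GC box GGGCGG, at which Sp1 binds, was present in 14 of 15 cholesterol synthesis enzymes, 2 of 6 fatty acid enzymes and 53.4% of array genes, and the median GC content of the windows was 62.8%, 60.6% and 57.6% for these 3 sets. The E-box CACGTG was present in 3 of 15 cholesterol synthesis enzymes, 1 of 6 fatty acid enzymes and 8.73% of array genes. The sterol regulatory element in the strict spelling TCACNCCAC was present in Hmgcs1 alone (1.27% of array genes). A match is a run of letters and not a shown binding site, and Mvk, which was not called in any comparison, held 5 CCAAT matches. The windows below end at the base before the start and show how the matches lie. They are those of Msmo1, Idi1 and Cyp51, which had large changes, and of Sc5d, which had a smaller change and holds an E-box. Added to these are Hmgcs1 with its sterol regulatory element and Fasn of the fatty acid route, which was not called. Capitals mark the sterol regulatory element, NF-Y boxes (CCAAT, or ATTGG on the other strand) and E-boxes. They lie at chr13:119690151-119690350 on the plus strand (Hmgcs1), chr8:64733579-64733758 on the minus strand (Msmo1), chr13:8885506-8885605 on the plus strand (Idi1), chr5:4104698-4104797 on the minus strand (Cyp51), chr9:42264301-42264420 on the minus strand (Sc5d) and chr11:120824548-120824647 on the minus strand (Fasn).
Hmgcs1: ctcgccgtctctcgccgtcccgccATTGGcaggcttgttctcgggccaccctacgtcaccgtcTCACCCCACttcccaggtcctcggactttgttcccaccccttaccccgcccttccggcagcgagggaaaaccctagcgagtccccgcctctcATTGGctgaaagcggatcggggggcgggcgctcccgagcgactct
Msmo1: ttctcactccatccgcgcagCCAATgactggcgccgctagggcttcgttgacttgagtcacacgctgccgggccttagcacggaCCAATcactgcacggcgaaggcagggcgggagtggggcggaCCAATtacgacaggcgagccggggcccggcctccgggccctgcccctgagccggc
Idi1: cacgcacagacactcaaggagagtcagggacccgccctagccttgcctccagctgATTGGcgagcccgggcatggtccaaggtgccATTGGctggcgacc
Cyp51: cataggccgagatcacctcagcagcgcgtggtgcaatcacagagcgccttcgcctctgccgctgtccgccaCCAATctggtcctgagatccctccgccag
Sc5d: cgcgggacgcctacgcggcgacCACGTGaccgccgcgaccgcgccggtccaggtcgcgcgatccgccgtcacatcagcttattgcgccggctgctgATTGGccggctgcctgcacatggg
Fasn: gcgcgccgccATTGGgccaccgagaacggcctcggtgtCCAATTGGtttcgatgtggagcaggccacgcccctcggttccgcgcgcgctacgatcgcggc

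In Hmgcs1 the sterol regulatory element began 137 bases before the start, between NF-Y boxes that began at 176 and 45 bases. Msmo1 held NF-Y boxes at 160, 96 and 55 bases, Idi1 at 45 and 14, Cyp51 at 29, and Sc5d at 24 with an E-box at 98. The Fasn boxes at 62 and 59 bases overlap, one on each strand, beside another at 90 bases.

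**Figure D2:**
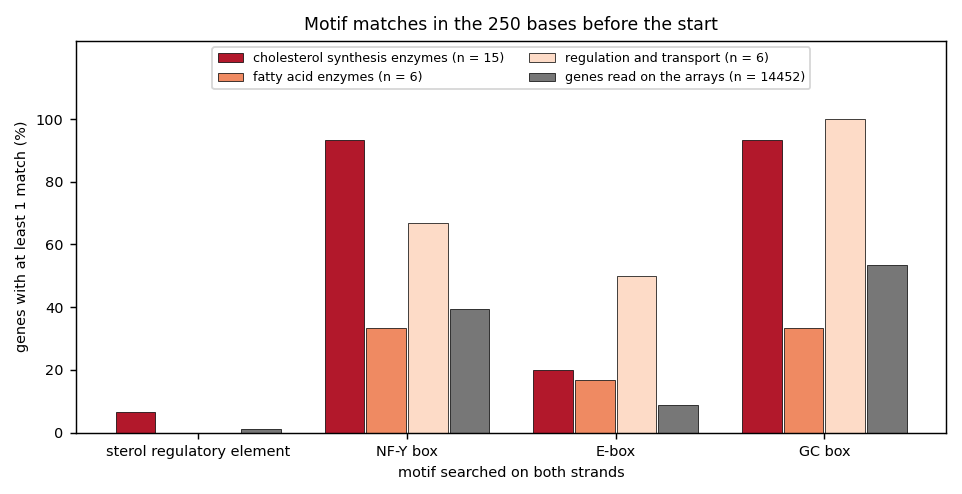
Percent of genes with at least 1 match to each motif in the 250 bases before the start, for the cholesterol synthesis enzymes (n = 15), the fatty acid enzymes (n = 6), the regulation and transport genes (n = 6) and the array genes with a promoter (n = 14452). The bars of the NF-Y box stand at 93.3%, 33.3%, 66.7% and 39.4%.

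In the mevalonate pathway, which ends in farnesyl diphosphate, Idi1 and Fdps rose in Mig-6 d/d, and these 2 with Hmgcs1 and Pmvk fell in the double knockout relative to Mig-6 d/d. Idi1, which encodes the isomerase that makes the reactive isoprenoid unit, read 66.8, 54.4 and 82.5 in the double knockout, 231, 127 and 322 in Mig-6 d/d, and 60.5, 43.7 and 48.6 in control. Every Mig-6 d/d array was above every array of both other groups, which overlapped each other. Idi1 rose by 2.07 on the log2 scale in Mig-6 d/d against control (SE 0.29, limma adjusted p = 0.0104) and fell by 1.66 in the double knockout relative to Mig-6 d/d (SE 0.29, limma adjusted p = 0.011), and both calls held with any 1 array left out. Fdps, which joins isoprenoid units into farnesyl diphosphate, read 77.5, 71.6 and 93.6 in the double knockout, 317, 146 and 462 in Mig-6 d/d, and 71.8, 68.6 and 74.3 in control. Again those of Mig-6 d/d stood clear of the others, with replicate 2 the lowest of them. Fdps rose by 1.96 on the log2 scale in Mig-6 d/d against control (SE 0.33, limma adjusted p = 0.0159) and fell by 1.79 in the double knockout relative to Mig-6 d/d (SE 0.33, limma adjusted p = 0.0123). The Fdps increase was lost without Mig-6 d/d replicate 1 (limma adjusted p = 0.0633) or control replicate 2 (0.0565), and the decrease without Mig-6 d/d replicate 1 (0.0514), double knockout replicate 1 (0.0505) or replicate 2 (0.0507).

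Hmgcs1, the synthase that makes HMG-CoA, read 226, 251 and 306 in the double knockout, 617, 378 and 652 in Mig-6 d/d, and 304, 189.6 and 353 in control. All 3 Mig-6 d/d values were the highest, while the other groups overlapped. Hmgcs1 fell by 1.04 on the log2 scale in the double knockout relative to Mig-6 d/d (SE 0.26, limma adjusted p = 0.0398), and its log2 fold change for Mig-6 d/d against control was 0.97 (SE 0.26, limma adjusted p = 0.0731). The decrease was lost when any 1 of the 6 arrays compared was left out except Mig-6 d/d replicate 2, with adjusted p values from 0.0596 to 0.136. Pmvk, phosphomevalonate kinase, read 43.5, 44.1 and 36.6 in the double knockout, 54.9, 56.8 and 80.5 in Mig-6 d/d, and 41.5, 44.1 and 47.9 in control. Pmvk fell 1.53-fold in the double knockout relative to Mig-6 d/d, a call lost without any 1 of those 6 arrays (limma adjusted p = 0.0505 to 0.125), and its arrays were 1.42-fold higher in Mig-6 d/d than control without a call. The remaining enzymes of this stretch were not called. Mvd, the decarboxylase, averaged 22.7 ± 4.37 in the double knockout, 38.8 ± 18.3 in Mig-6 d/d and 22.2 ± 7.41 in control (SD, n = 3), with overlapping arrays. Mvk, mevalonate kinase, averaged 41.9 ± 3.26, 38.5 ± 4.89 and 43.2 ± 9.09 in the double knockout, Mig-6 d/d and control, and was the only cholesterol synthesis enzyme with a negative log2 fold change for Mig-6 d/d against control, -0.16 with a 95% interval from -0.51 to 0.20. At its other, dimmer probe set this value was positive, 0.14, and not called.

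From squalene onward all 11 enzymes had a positive log2 fold change for Mig-6 d/d against control, and 8 of them rose. Fdft1, squalene synthase, which commits farnesyl diphosphate to sterol, read 74.95, 65.4 and 92.5 in the double knockout, 239, 134 and 258 in Mig-6 d/d, and 56.6, 55.4 and 87.1 in control. There was no overlap between Mig-6 d/d and the other groups. Fdft1 rose by 1.64 on the log2 scale in Mig-6 d/d against control (SE 0.26, limma adjusted p = 0.0134) and fell by 1.40 in the double knockout relative to Mig-6 d/d (SE 0.26, limma adjusted p = 0.0134). The increase was lost without Mig-6 d/d replicate 1 (limma adjusted p = 0.056) or replicate 3 (0.0504) or control replicate 2 (0.0525), and the decrease without Mig-6 d/d replicate 1 (0.0557), double knockout replicate 1 (0.0523) or replicate 2 (0.0556). Sqle, the epoxidase that controls the rate of the late pathway, read 74.3, 49.7 and 82.9 in the double knockout, 182, 105 and 213 in Mig-6 d/d, and 60.2, 58.2 and 57.6 in control. The control arrays were close together and the Mig-6 d/d arrays were spread over a wide range above them. Sqle rose by 1.44 on the log2 scale in Mig-6 d/d against control (SE 0.25, limma adjusted p = 0.0191) and fell by 1.24 in the double knockout relative to Mig-6 d/d (SE 0.25, limma adjusted p = 0.0191). For Sqle the increase was lost without Mig-6 d/d replicate 1 (limma adjusted p = 0.0717) or replicate 3 (0.0623) or control replicate 2 (0.0635), and the decrease without Mig-6 d/d replicate 1 (0.0742) or replicate 3 (0.0643) or double knockout replicate 1 (0.054) or replicate 2 (0.0668).

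Lss, which closes squalene epoxide into lanosterol, read 27.2, 26.1 and 36.0 in the double knockout, 52.1, 35.4 and 70.5 in Mig-6 d/d, and 24.5, 24.3 and 29.3 in control. Mig-6 d/d replicate 2 lay just below the highest double knockout array. Lss rose by 0.97 on the log2 scale in Mig-6 d/d against control (SE 0.22, limma adjusted p = 0.0461), a call lost when any 1 array other than Mig-6 d/d replicate 2 was left out (limma adjusted p = 0.0535 to 0.142), and was not called in the double knockout relative to Mig-6 d/d (log2 fold change -0.78, limma adjusted p = 0.0675). Cyp51, the lanosterol demethylase, read 27.1, 26.3 and 47.2 in the double knockout, 97.2, 59.3 and 129 in Mig-6 d/d, and 22.6, 13.5 and 18.5 in control. Here the groups formed 3 steps without overlap, Mig-6 d/d highest and control lowest. Cyp51 rose by 2.34 on the log2 scale in Mig-6 d/d against control (SE 0.31, limma adjusted p = 0.00903), a call that held with any 1 array left out, and fell by 1.49 in the double knockout relative to Mig-6 d/d (SE 0.31, limma adjusted p = 0.0207). That decrease was lost without Mig-6 d/d replicate 1 (limma adjusted p = 0.0745) or replicate 3 (0.069) or double knockout replicate 1 (0.0823) or replicate 2 (0.0784). Msmo1, the monooxygenase that strips methyl groups from lanosterol products, read 45.0, 31.4 and 53.8 in the double knockout, 193, 91.8 and 248 in Mig-6 d/d, and 36.7, 26.9 and 34.2 in control. The lowest Mig-6 d/d array was well above the highest array of either other group. Msmo1 rose by 2.34 on the log2 scale in Mig-6 d/d against control (SE 0.33, limma adjusted p = 0.0104) and fell by 1.95 in the double knockout relative to Mig-6 d/d (SE 0.33, limma adjusted p = 0.00907), and both calls held with any 1 array left out.

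The later enzymes rearrange and reduce the sterol ring, and Hsd17b7, Ebp and Sc5d among them were called in both comparisons. Hsd17b7, a ketosteroid reductase that also acts in sterol synthesis, read 34.9, 29.9 and 30.7 in the double knockout, 60.4, 46.6 and 82.0 in Mig-6 d/d, and 25.2, 28.7 and 33.9 in control. Hsd17b7 rose by 1.08 on the log2 scale in Mig-6 d/d against control (SE 0.19, limma adjusted p = 0.0192) and fell by 0.95 in the double knockout relative to Mig-6 d/d (SE 0.19, limma adjusted p = 0.0179). Its Mig-6 d/d arrays were all above the rest, but the increase was lost without Mig-6 d/d replicate 1 (limma adjusted p = 0.0642) or control replicate 2 (0.0641), and the decrease without Mig-6 d/d replicate 1 (0.058) or without double knockout replicate 2 (0.0666) or replicate 3 (0.0535). Ebp, a sterol isomerase, read 156, 158 and 167 in the double knockout, 284, 254 and 352 in Mig-6 d/d, and 177, 161 and 162 in control. The double knockout and control arrays of Ebp lay close together, and all Mig-6 d/d arrays were above them. Ebp rose by 0.82 on the log2 scale in Mig-6 d/d against control (SE 0.12, limma adjusted p = 0.0119) and fell by 0.88 in the double knockout relative to Mig-6 d/d (SE 0.12, limma adjusted p = 0.00461), and both calls held with any 1 array left out. Sc5d, a sterol desaturase, read 29.2, 22.2 and 29.8 in the double knockout, 74.5, 37.7 and 59.2 in Mig-6 d/d, and 30.9, 25.3 and 28.1 in control. In Sc5d, unlike most of these genes, Mig-6 d/d replicate 1 was higher than replicate 3. Sc5d rose by 0.97 on the log2 scale in Mig-6 d/d against control (SE 0.22, limma adjusted p = 0.0433) and fell by 1.04 in the double knockout relative to Mig-6 d/d (SE 0.22, limma adjusted p = 0.0227). The Sc5d increase was lost when any 1 array other than Mig-6 d/d replicate 2 was left out (limma adjusted p = 0.0521 to 0.139), and the decrease without Mig-6 d/d replicate 1 (0.0723) or replicate 3 (0.0757) or double knockout replicate 1 (0.0616) or replicate 2 (0.0856).

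Of the other sterol ring enzymes, Dhcr7, the reductase of a last step to cholesterol, read 61.6, 58.0 and 50.8 in the double knockout, 85.1, 84.1 and 93.0 in Mig-6 d/d, and 59.5, 68.5 and 64.9 in control. Dhcr7 fell 1.54-fold in the double knockout relative to Mig-6 d/d, and without replicate 3 of Mig-6 d/d or of the double knockout the change was under the fold limit. In Mig-6 d/d against control Dhcr7 was 1.36-fold higher with an adjusted p of 0.0495 (limma), which is under the fold limit. Tm7sf2, a sterol reductase, had a log2 change of 1.38 in Mig-6 d/d against control that missed the threshold (SE 0.37, limma adjusted p = 0.0731), with values of 30.7, 21.9 and 68.1 in Mig-6 d/d against 12.8, 10.4 and 19.8 in control. All Mig-6 d/d arrays were above all control arrays, with replicate 3 far above the other two. Nsdhl, a dehydrogenase of the demethylation steps, averaged 53.6 ± 4.83 in the double knockout, 87.3 ± 38.5 in Mig-6 d/d and 51.6 ± 1.74 in control (SD, n = 3), and was not called in any comparison.

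**Figure D3:**
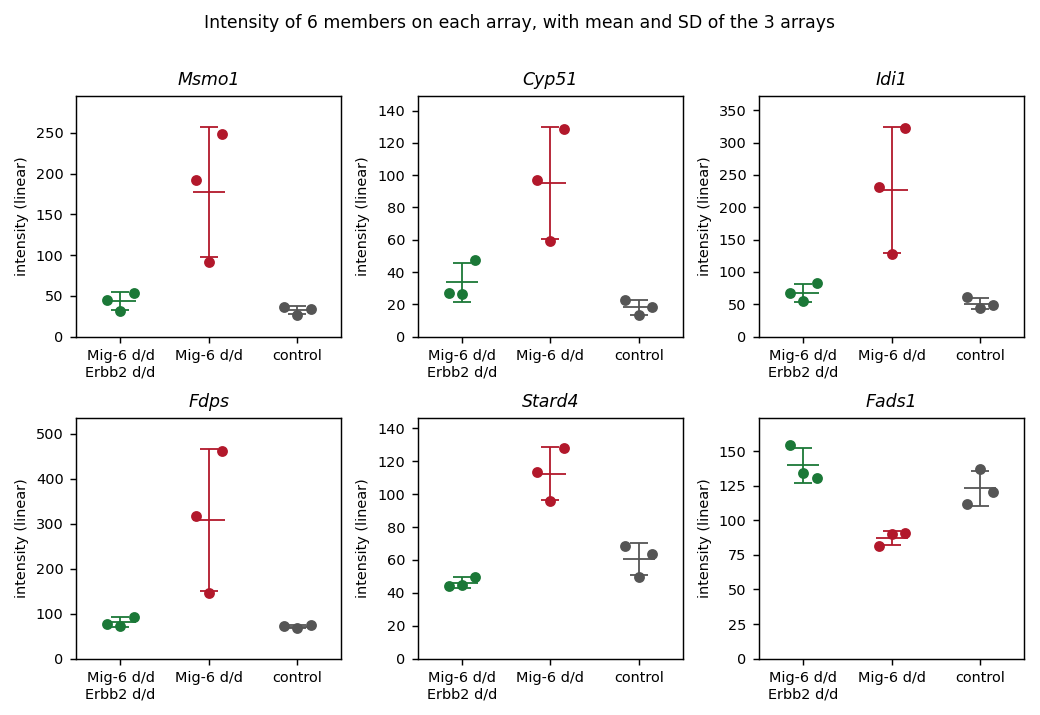
Linear intensity of Msmo1, Cyp51, Idi1, Fdps, Stard4 and Fads1 on each array (points) for the double knockout, Mig-6 d/d and control, with the mean and SD of the 3 arrays (bars). Mig-6 d/d points are the highest for the first 5 genes and the lowest for Fads1, where they read 81.1 to 90.6.

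Among the regulators, Insig1 and Srebf2 rose in Mig-6 d/d. Insig1, which retains the SREBP escort in the endoplasmic reticulum and is itself a known SREBP target, read 37.8, 36.4 and 51.2 in the double knockout, 108, 57.8 and 101 in Mig-6 d/d, and 34.0, 26.9 and 36.8 in control. Again Mig-6 d/d was above all others, with its replicate 2 close to the highest double knockout array. Insig1 rose by 1.41 on the log2 scale in Mig-6 d/d against control (SE 0.24, limma adjusted p = 0.0161) and fell by 1.05 in the double knockout relative to Mig-6 d/d (SE 0.24, limma adjusted p = 0.027). Without Mig-6 d/d replicate 1 or replicate 3 or control replicate 2 the increase was lost (limma adjusted p = 0.0596 to 0.0612), and without Mig-6 d/d replicate 1 or replicate 3 or double knockout replicate 1 or replicate 2 so was the decrease (0.0928 to 0.1). Srebf2, which encodes the SREBP of the cholesterol genes, read 42.8, 42.4 and 50.7 in the double knockout, 65.2, 51.3 and 64.7 in Mig-6 d/d, and 35.1, 34.1 and 37.7 in control. The 3 groups did not overlap, with the double knockout between the others. Srebf2 rose 1.69-fold in Mig-6 d/d against control, a call lost without Mig-6 d/d replicate 1 (limma adjusted p = 0.0575) or replicate 3 (0.0562) or control replicate 2 (0.0525), and was not called in the double knockout relative to Mig-6 d/d (log2 fold change -0.41, limma adjusted p = 0.0755). Srebf1, which encodes the SREBPs of the fatty acid and cholesterol genes, averaged 119 ± 8.08 in the double knockout, 171 ± 35.6 in Mig-6 d/d and 127 ± 13.4 in control, and the SREBP escort Scap averaged 164 ± 25.7, 171 ± 16.9 and 157 ± 5.84 in these groups (SD, n = 3). Neither was called in any comparison.

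In cholesterol transport the intracellular sterol carrier Stard4 was called, and the genes of lysosomal egress and efflux were not. Stard4 read 44.1, 44.8 and 49.9 in the double knockout, 113, 96.0 and 128 in Mig-6 d/d, and 68.3, 49.7 and 63.6 in control. All 3 Mig-6 d/d arrays were clear of both other groups, and the double knockout arrays lay at the low end of the control range or below it. Stard4 rose by 0.90 on the log2 scale in Mig-6 d/d against control (SE 0.14, limma adjusted p = 0.0141), a call lost without Mig-6 d/d replicate 1 (limma adjusted p = 0.0559) or replicate 3 (0.0535), and fell by 1.27 in the double knockout relative to Mig-6 d/d (SE 0.14, limma adjusted p = 0.00203), a call that held with any 1 array left out. Npc1, which moves cholesterol out of the lysosome, read 71.8, 58.7 and 50.3 in the double knockout, 48.1, 48.9 and 43.5 in Mig-6 d/d, and 57.4, 60.8 and 84.7 in control. It was lowest in Mig-6 d/d without overlap and was not called (log2 fold change against control -0.51, limma adjusted p = 0.132). Its lysosomal partner Npc2 averaged 990 ± 113 in the double knockout, 885 ± 54.3 in Mig-6 d/d and 925 ± 59.0 in control. The exporters of the LXR pathway had their lowest means in the double knockout, where Abca1 averaged 303 ± 20.2 and Abcg1 34.2 ± 3.41, against 333 ± 19.7 and 44.4 ± 2.83 in Mig-6 d/d and 376 ± 34.7 and 48.3 ± 8.33 in control (SD, n = 3). Npc2, Abca1 and Abcg1 were not called in any comparison.

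The enzymes that make fatty acids were not called in any comparison. Acly, which supplies cytosolic acetyl-CoA to both routes, read 246, 388 and 343 in the double knockout, 522, 364 and 537 in Mig-6 d/d, and 396, 198 and 316 in control. Its groups overlapped at this probe set, and the log2 fold change for Mig-6 d/d against control was 0.68 (SE 0.26, limma adjusted p = 0.198). At a further bright probe set Acly read 273, 254 and 285 in the double knockout, 380, 302 and 371 in Mig-6 d/d, and 273, 253 and 259 in control. There the Mig-6 d/d arrays were above all others without a call (log2 fold change 0.42, limma adjusted p = 0.0694), and at a dimmer one the groups overlapped. Fasn, fatty acid synthase, read 245, 202 and 218 in the double knockout, 270.1, 245 and 240.4 in Mig-6 d/d, and 189, 227 and 166 in control. The Mig-6 d/d arrays were above all control arrays, with a log2 change of 0.38 (SE 0.13, limma adjusted p = 0.141) whose 95% interval ran from 0.10 to 0.67. Acaca, the carboxylase that makes malonyl-CoA, averaged 107 ± 19.8 in the double knockout, 94.7 ± 12.2 in Mig-6 d/d and 86.2 ± 5.60 in control (SD, n = 3), and its interval for Mig-6 d/d against control, from -0.20 to 0.46, lay within 1.5-fold either way.

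Of the 6 desaturases and elongases, 1 fell and 1 rose in the double knockout relative to Mig-6 d/d. Scd2, a desaturase that makes monounsaturated fatty acids, read 1459, 1364 and 1482 in the double knockout, 2348, 1881 and 2301 in Mig-6 d/d, and 1485, 1239 and 1692 in control. Those of Mig-6 d/d were above all others. Scd2 fell 1.51-fold in the double knockout relative to Mig-6 d/d, a call lost when any 1 of the 6 arrays compared was left out except Mig-6 d/d replicate 2 (limma adjusted p = 0.0607 to 0.0992), and was 1.48-fold higher in Mig-6 d/d than control, which is under the fold limit (limma adjusted p = 0.0468). Its relative Scd1 averaged 109 ± 26.1 in the double knockout, 115 ± 22.7 in Mig-6 d/d and 107 ± 11.2 in control. Fads1, a desaturase of polyunsaturated fatty acids, ran the other way. It read 154, 134 and 130.5 in the double knockout, 81.1, 90.0 and 90.6 in Mig-6 d/d, and 112, 137 and 120.2 in control, so that the Mig-6 d/d arrays were the lowest. Fads1 rose 1.60-fold in the double knockout relative to Mig-6 d/d, a call that held with any 1 array left out but not with the mean over its probe sets, and was 1.41-fold lower in Mig-6 d/d than control, which is under the fold limit (limma adjusted p = 0.0419). Fads2, the desaturase of an earlier step of that route, read 114, 105 and 86.2 in the double knockout, 59.1, 59.4 and 81.7 in Mig-6 d/d, and 105, 135 and 70.4 in control, and was not called. The elongase Elovl5 averaged 1106 ± 85.8 in the double knockout, 1339 ± 256 in Mig-6 d/d and 990 ± 138 in control, and the elongase Elovl6 121 ± 10.9, 108 ± 9.95 and 92.8 ± 5.54 in these groups (SD, n = 3). Neither elongase was called in any comparison.

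In the double knockout against control, 0 of the 35 genes rose (0.214% of all genes did) and 0 fell (0.198% of all genes did) in limma. At an unadjusted p under 0.05, 3 were higher and 3 lower, and the methods' t-test with the fold limit called 0. The median log2 fold change was 0.08, where that of all genes was 0.01, and 23 of the 35 had a positive value. The double knockout arrays lay above all control arrays for 3 genes (6.52% of all genes) and below them for 2 genes (5.32% of all genes). Cyp51 had the largest value, 0.86 (SE 0.31, limma adjusted p = 0.49), with a 95% interval from 0.17 to 1.55. The 95% interval lay within 1.5-fold either way for 17 of the 35 genes, so for the other 18 a change of 1.5-fold was not excluded by these arrays. For Fdps the interval ran from -0.56 to 0.90, for Msmo1 from -0.34 to 1.12, for Idi1 from -0.25 to 1.06 and for Ebp from -0.33 to 0.21.

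**Figure D4:**
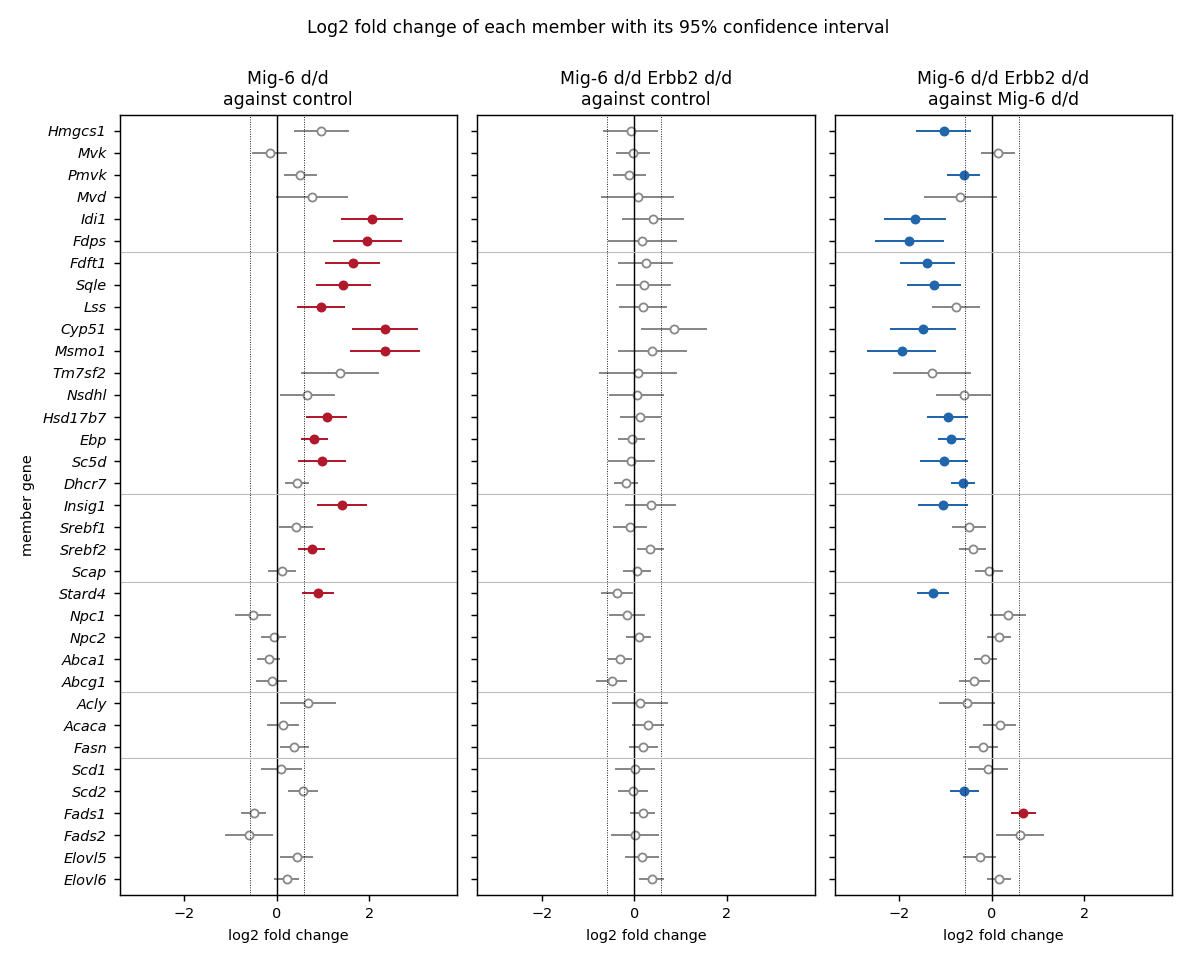
Log2 fold change (points) with its 95% confidence interval (lines) of the 35 measured genes for Mig-6 d/d against control, the double knockout against control and the double knockout relative to Mig-6 d/d; filled red points were called increased, filled blue points decreased, and dotted lines mark 1.5-fold. There are 13 red points in the left panel, 0 coloured points in the middle one, and 15 blue with 1 red in the right one.

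The arrays of a group differed from each other in the same way for most of these genes. Among the 13 genes with an increase against control, Mig-6 d/d replicate 2 was the lowest of its group for 13 and replicate 3 the highest for 10. Double knockout replicate 2 was the lowest of its group for 11 and replicate 3 the highest for 12, and control replicate 2 was the lowest for 11, so replicate 2 was mostly the lowest array in all 3 groups. Over the 17 cholesterol synthesis enzymes the summed intensity was 1077, 1012 and 1251 in the double knockout, 2674, 1685 and 3319 in Mig-6 d/d, and 1082, 951 and 1179 in control. Without the library with the label Mig-6 d/d replicate 3, whose Errfi1 level lay near control, 6 genes rose in Mig-6 d/d against control (Idi1, Fdps, Cyp51, Msmo1, Hsd17b7 and Ebp) and 7 fell in the double knockout relative to Mig-6 d/d (Idi1, Fdps, Fdft1, Msmo1, Hsd17b7, Ebp and Stard4). Without Mig-6 d/d replicate 1 these counts were 4 and 5, and without replicate 2 they were 18 and 18. Without control replicate 2, 5 genes rose, and without double knockout replicate 1 or replicate 2, 6 or 5 fell.

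The listed epithelium markers moved with the cholesterol synthesis enzymes, and no marker on the separate gland list was called. In Mig-6 d/d against control, 5 of 7 gland markers had a negative log2 fold change, with a median of -0.17. Limma called 0 of the 7, with 0 at an unadjusted p under 0.05 and 0 by the methods' t-test with the fold limit. Of 14 measured epithelium markers, 8 rose in Mig-6 d/d against control (2.55% of all genes did), and all 14 had a positive log2 fold change. In the double knockout relative to Mig-6 d/d, 10 of the 14 fell (3.76% of all genes did). For the double knockout against control limma called 0 of the 14, with 0 at an unadjusted p under 0.05 and 0 by the methods' t-test with the fold limit. Their summed intensity ran from 2852 to 4132 in the double knockout, from 8231 to 12613 in Mig-6 d/d uteri and from 3124 to 5631 in control uteri. The keratin Krt7 had a log2 change of 2.61, the junction protein Cldn7 of 2.15, the keratin Krt19 of 1.92 and the splicing factor Esrp1 of 1.501 in Mig-6 d/d against control. Per array, the median of the markers relative to the control mean was -0.53, -0.23 and 0.08 in the double knockout, 1.60, 1.12 and 1.66 in Mig-6 d/d, and -0.11, -0.35 and 0.60 in control. Mig-6 d/d replicate 2 and control replicate 2 were the lowest of their groups here too. In the double knockout the lists differed, with replicate 1 lowest for the epithelium markers and replicate 2 for the cholesterol synthesis enzymes. Control replicate 3 had the highest median of the control arrays on both lists, 0.60 for the epithelium markers and 0.06 for the cholesterol synthesis enzymes. All 11 stroma markers had a negative log2 fold change for Mig-6 d/d against control. Of these, 2 fell (1.81% of all genes did), the filament gene Vim (-0.61) and the nuclear receptor Nr2f2 (-0.77). In whole-uterus RNA, more cells of a type and more RNA per cell cannot be told apart, and the part of cell composition in the changes of the sterol genes was not tested. Of the genes that define cells making steroid hormones from cholesterol, Star, Cyp11a1 and Hsd3b1 read from 3.70 to 13.3 on all arrays, near the overall median of 8.07. Of the 8 markers listed for such cells others were brighter, Scarb1, a lipoprotein receptor, at 101 to 206 and the ovarian transcription factor Foxl2 at 96.3 to 201, and the summed intensity of the 8 ran from 318 to 338 in the double knockout, from 258 to 303 in Mig-6 d/d uteri and from 334 to 419 in control uteri.

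**Figure D5:**
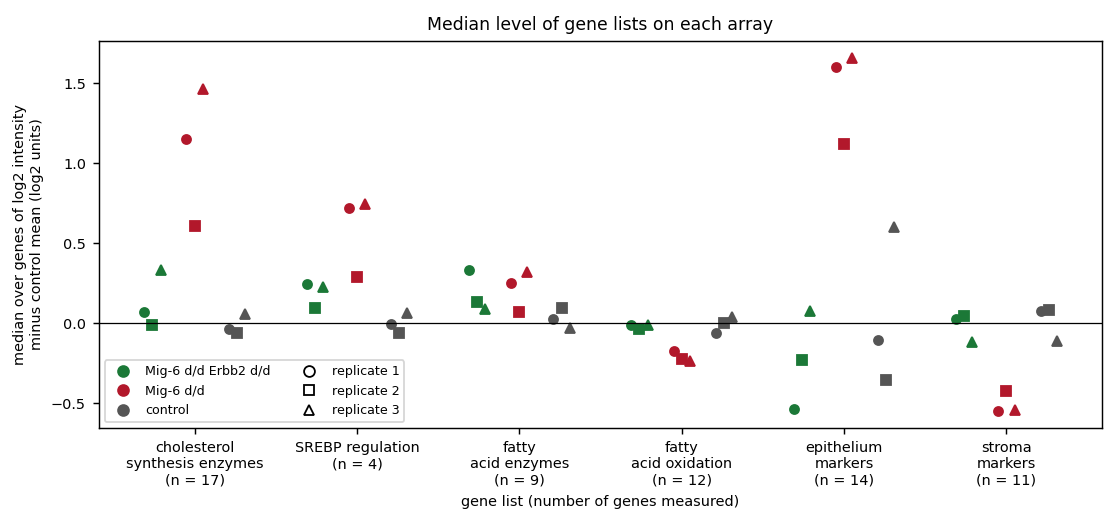
Median over the genes of 6 lists of the log2 intensity minus the control mean, per array, for the double knockout (green), Mig-6 d/d (red) and control (grey), with the replicate number as the marker shape. In Mig-6 d/d the cholesterol synthesis enzymes (n = 17) and the epithelium markers (n = 14) lie above both other groups and the stroma markers (n = 11) below them, while the medians of the fatty acid enzymes (n = 9) overlap. The summed intensity of the fatty acid enzymes, in which Scd2 and Elovl5 are the brightest, did not overlap. It ran from 3610 to 3708 in the double knockout, from 4541 to 4833 in Mig-6 d/d and from 3068 to 3700 in control.

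The results so far rest on 1 probe set per gene. The measured genes had 46 further probe sets, of which 26 had a mean above the overall median. Of the 46, 9 rose and 0 fell in Mig-6 d/d against control, none of the 46 was called in double knockout uteri against control, and 10 fell and 0 rose in the double knockout relative to Mig-6 d/d, with no call among the dim ones. A second probe set of Idi1 had a log2 change of 2.88 in Mig-6 d/d against control, one of Sc5d 1.97 and one of Stard4 1.77, each larger than at the brighter probe set. Further probe sets of Cyp51 (2.11), Fdft1 (1.63), Hsd17b7 (0.98) and Lss (0.91) rose by less than at the brighter one. Others of Hsd17b7 (0.79, limma adjusted p = 0.0755), Hmgcs1 (0.70, 0.127) and Stard4 (0.57, 0.0372, under the fold limit) also had smaller changes and were not called. A further one of Hmgcs1 (1.21, limma adjusted p = 0.0993) and one of Mvd (1.02, 0.171) had larger changes than at the brighter probe set and were not called. For Hmgcs1 and Scd2, which were not called in Mig-6 d/d against control, a dimmer probe set rose, by 1.12 on the log2 scale (limma adjusted p = 0.0134) and 0.73 (limma adjusted p = 0.0407). The second probe set of Srebf2 was not called (log2 fold change 0.35, limma adjusted p = 0.251).

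Of 25 further sterol genes 18 were measured. In Mig-6 d/d against control 1 of the 18 rose (2.55% of all genes did) and 2 fell (1.81% of all genes did), and in the double knockout relative to Mig-6 d/d 2 rose (3.73% of all genes did) and 1 fell (3.76% of all genes did). In Mig-6 d/d against control Stard3, a carrier of endosomal cholesterol, rose by 0.72 on the log2 scale, while the lipoprotein receptor Vldlr fell by 0.95 and Cyp27a1, which oxidises cholesterol, fell by 1.00. Vldlr read 512, 652 and 528 in the double knockout, 329, 344 and 308 in Mig-6 d/d, and 632, 560 and 706 in control. Its Mig-6 d/d arrays were below all others. In the double knockout relative to Mig-6 d/d, Cyp27a1 rose by 1.30 and Vldlr by 0.78 on the log2 scale and Stard3 fell by 0.72. The medians of the 18 genes were -0.04 and 0.08 in these comparisons, and in the double knockout against control limma called 0 of them, with 3 at an unadjusted p under 0.05 and 0 by the methods' t-test with the fold limit.

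Fatty acid genes outside the list included several that rose in Mig-6 d/d. Of 27 such genes 26 were measured, and 5 rose in Mig-6 d/d against control (2.55% of all genes did) and 0 fell (1.81% of all genes did), with a median log2 fold change of 0.11. The increases included Elovl7, an elongase of saturated fatty acids (1.36), the acyl-CoA synthetases Acsl3 (1.31) and Acsl4 (1.12), and Hsd17b12, a reductase of the elongation cycle (1.04). Hsd17b12 read 297, 245 and 250.3 in the double knockout, 527, 423 and 581 in Mig-6 d/d, and 289, 240.2 and 212 in control. The Mig-6 d/d arrays were above all others. In the double knockout relative to Mig-6 d/d 6 fell (3.76% of all genes did) and 0 rose (3.73% of all genes did), with Elovl7 (-1.67), Acsl3 (-1.07), Dgat2, which makes triglyceride (-1.05), and Me1, which supplies NADPH for fatty acid synthesis (-1.04), having the largest changes. In the double knockout against control limma called 0 of the 26, with 8 at an unadjusted p under 0.05 and 2 by the methods' t-test with the fold limit. The genes of fatty acid oxidation were not called. All 12 measured had a negative log2 fold change for Mig-6 d/d against control, with a median of -0.23, and 11 a positive one in the double knockout relative to Mig-6 d/d. Beside the 0 calls by limma, 2 of the 12 had an unadjusted p under 0.05 in Mig-6 d/d against control and 3 in the double knockout relative to Mig-6 d/d, and the methods' t-test with the fold limit called 0 in both.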

How the data were processed

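RNA of 9 uterus samples was measured on Affymetrix mouse arrays. The authors deposited 1 linear intensity for each probe set and array. The submitters' processing notes name RMA (robust multi-array averaging) without a version. RMA shares 1 distribution across arrays, so a change is relative to the other probe sets of an array. No scanner file or detection call was analysed here, so brightness over background was not judged, and precision is limited by the number of arrays.

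Of 45037 probe sets, 34945 had 1 gene symbol in the platform annotation, 932 named several genes and 9160 none. The symbols were checked by Entrez identifier in a RefSeq table, which held 34741 of them and changed 0. Log2 values were fitted in R 4.3.3 with limma 3.58.1 (lmFit, eBayes), with 3 groups in 1 model and no covariate. The methods give a comparison of 2 groups at a time with a fold limit of 1.5; a two-tailed unpaired t-test at p under 0.05, unadjusted, with that limit is called the methods' t-test. On simulated data for Mig-6 d/d against control (45037 probe sets, 50 changed per fold size), limma called 10% of those changed 1.5-fold, 66% of those changed 2-fold, 88% of those changed 3-fold and 96% of those changed 4-fold, and 8 unchanged probe sets. The changed probe sets all had a mean above the median probe set, and noise was independent between probe sets. They were fewer than the 772 increased and 493 decreased probe sets called in the data, so the rates in the data can differ.

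Members and lists were chosen with earlier results of these data known. Members called in a comparison are given with full statistics, the 12 with the largest change where more were called and the others by fold change; of other lists up to 4 called genes per comparison are named. The lists were further sterol genes, further fatty acid genes, fatty acid oxidation, and cell type markers (epithelium, endothelium, smooth muscle, stroma, gland, adipocytes, leukocytes, erythroid cells and steroidogenic ovary). Promoter windows of 250 bases came from a RefSeq table of 27025 genes, and a gene counted as holding a motif if any of its windows did. Alternatives were other normalizations, variance models, thresholds, probe set choices, the 6 arrays compared alone, the replicate number as a block and each array left out. Figures and tables were made with Python 3.11.15, pandas 2.3.3 and matplotlib 3.10.9.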

Additional observations from a re-analysis of the deposited data

How the results depend on the processing

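Of 29 calls of single genes, 9 held with each array left out: Idi1, Cyp51, Msmo1 and Ebp in Mig-6 d/d against control, and Idi1, Msmo1, Ebp, Stard4 and Fads1 in the double knockout relative to Mig-6 d/d. With 1 array left out, the genes increased in Mig-6 d/d against control numbered 4 to 18 and those decreased 0 to 1 (13 and 0 with all arrays), and in the double knockout relative to Mig-6 d/d those decreased numbered 5 to 18 and those increased 1 to 1 (15 and 1 with all arrays). Above 2-fold, 8 rose in Mig-6 d/d against control and 0 rose and 10 fell in the double knockout relative to Mig-6 d/d. The methods' t-test with Benjamini-Hochberg adjustment called 0 in each of these directions, and unadjusted it called 2 increased in the double knockout relative to Mig-6 d/d, where averaging the probe sets of each gene called 0. With no fold limit 1 gene, Fads1, was decreased in Mig-6 d/d against control. A further alternative left out all probe sets with identifiers ending in _x_at, _s_at or _a_at. Msmo1 then kept only a dim probe set, with a mean of 3.35 in Mig-6 d/d. Its log2 values there were -0.0685 in Mig-6 d/d against control and 0.15 in the double knockout relative to Mig-6 d/d. At that level they are no reliable fold change and do not bear on the brighter probe set. The labels number the replicates 1 to 3, and no source ties a number to a shared litter, batch or day, so the samples were not taken as paired. Over the probe sets with a mean above the median probe set, the deviations of same-numbered arrays correlated from -0.162 to 0.248, above 0.1 in 3 of 9 pairs. Arrays with different numbers were not correlated, so these values can neither show nor exclude pairing. For the cholesterol synthesis enzymes the median was lowest at replicate 2 and highest at replicate 3 in each group. With a replicate block 15 genes rose in Mig-6 d/d against control and 16 fell in the double knockout relative to Mig-6 d/d, where the Pmvk decrease was lost (adjusted p = 0.0552, limma). Repeat quantile normalization lost the Lss increase (0.0501) and the Hmgcs1 (0.0504) and Scd2 (0.0614) decreases. With only the 6 arrays compared the Lss (0.0892), Hsd17b7 (0.0552) and Sc5d (0.0869) increases and the Pmvk decrease (0.0523) were lost. The Srebf2 increase was lost with the mean over probe sets, and the Hmgcs1 decrease without the _x_at, _s_at and _a_at probe sets (0.102). The counts in the double knockout against control were 0 in both directions under all 22 alternatives. The causes of these differences were not tested, and where an array was left out its group kept 2 arrays. Signal over background was not judged, so values near the overall median of 8.07 have no reliable fold change.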

Other observations

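Markers of other cell types differed between the groups as well. In Mig-6 d/d against control, 3 of 9 endothelium markers fell (1.81% of all genes did) and 0 rose (2.55% of all genes did). Those that fell were Tek (-1.04 on the log2 scale), Cdh5 (-0.88) and Cldn5 (-0.77). All 9 had a negative log2 fold change, with a median of -0.74. Of 9 smooth muscle markers, all 9 had a negative value with a median of -0.59, and limma called 0, with 8 at an unadjusted p under 0.05 and 1 by the methods' t-test with the fold limit. In the double knockout relative to Mig-6 d/d, 4 of 9 endothelium, 4 of 9 smooth muscle and 2 of 11 stroma markers rose (3.73% of all genes did). Of these lists 0 markers fell (3.76% of all genes did). Actg2, an actin of smooth muscle, read 2672, 2031 and 2568 in the double knockout, 1199.7, 854 and 1189 in Mig-6 d/d, and 1607, 1911 and 1364 in control. Its Mig-6 d/d arrays were below all others.

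Of 7 leukocyte markers, 1 fell in Mig-6 d/d against control (1.81% of all genes did) and 0 rose (2.55% of all genes did). The marker that fell was Csf1r, the receptor of macrophages, by 0.67 on the log2 scale. Of the 7 gland markers and the 3 measured erythroid markers limma called 0 in any comparison, with 0 to 2 of the gland markers and 0 to 1 of the erythroid markers at an unadjusted p under 0.05, and the methods' t-test with the fold limit called 0. Of 6 adipocyte markers, 1 rose in the double knockout relative to Mig-6 d/d (3.73% of all genes did). It was Plin4, a lipid droplet protein, by 0.74 on the log2 scale, and the summed intensity of the 6 was 48.8 to 114 on all arrays. Of 8 steroidogenic ovary markers, 1 rose in the double knockout relative to Mig-6 d/d (3.73% of all genes did), Inha, by 0.78 on the log2 scale. Inha read 9.02, 10.2 and 8.90 in the double knockout and 4.35, 5.75 and 6.51 in Mig-6 d/d, close to the overall median of 8.07.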
